A study of Mus musculus with 10 samples.

Results

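Glucose uptake, glycolysis and gluconeogenesis were followed in αTC1 cells through 32 genes, chosen by symbol from the 33212 genes of the deposited count table. The choice covers glucose and lactate transporters, each enzyme from hexokinase to lactate dehydrogenase with its main isoforms, the phosphoglucomutases, and the enzymes particular to gluconeogenesis. In glycolysis, glucose enters through a transporter, is phosphorylated by hexokinase, committed by phosphofructokinase and split by aldolase, and the resulting trioses are oxidised to pyruvate with a net gain of ATP. Lactate dehydrogenase turns pyruvate into lactate, which monocarboxylate transporters carry out of the cell. Gluconeogenesis runs most of these steps backwards and bypasses the irreversible ones with phosphoenolpyruvate carboxykinase, fructose bisphosphatase and glucose phosphatase. Many of the steps have several isoforms, and a number of them are classical targets of hypoxia-inducible factor.

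αTC1 is a mouse line from a pancreatic tumour of glucagon-producing α cells, and the labels name no clone. All cells were kept in DMEM with 1 g/L glucose and 10% fetal bovine serum. Treatment was 10 μM enzalutamide, an antagonist of the androgen receptor, or its solvent DMSO for 48 h, and neither group carries a genetic change by the labels. Polyadenylated RNA was sequenced from 5 libraries per group. The labels call these biological replicates without saying that they were separate cultures, so the p-values measure only the spread between these libraries. In RNA from a whole culture, fewer cells expressing a gene and less of its RNA per cell cannot be told apart.

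Library totals were between 59557697 and 68603842 counts, and 14156 genes had enough counts to be tested. A count of 0 allows up to 3 counts, between 0.0439 and 0.0497 CPM (counts per library, scaled for depth and composition), a limit for counting error only. All 8 α cell markers examined were detected. Their summed levels were between 19393 and 20631 CPM in DMSO and between 11431 and 12737 CPM in enzalutamide. Of the 8, 5 fell (edgeR's quasi-likelihood test, adjusted p under 0.05), against 18.8% of all genes tested. Markers of β, δ, PP, acinar, ductal, fibroblast, leukocyte and endothelial cells each summed to at most 11.9 CPM in any library, with Ins1, Pdx1, Sst, Ppy, Prss1, Krt19, Ptprc and Cdh5 at 0 throughout. Mitochondrially encoded genes took 6.18% to 6.64% of counts in DMSO libraries and 7.21% to 7.88% in enzalutamide libraries. The part of the lower α cell markers and the higher mitochondrial share in the results below was not tested.

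Enzalutamide-treated cells had lower mRNA of most glycolytic enzymes and higher mRNA of Pck2, the mitochondrial phosphoenolpyruvate carboxykinase. Of the 32 genes, 31 could be tested and 20 of these fell, 3 rose (Pck2, G6pc3 and Eno2) and 8 did not pass (edgeR's quasi-likelihood test, Benjamini-Hochberg adjusted p under 0.05 over all 14156 genes). Over all genes tested, 37.8% were called, with 19.0% higher and 18.8% lower. The median log2 fold change of the 31 genes was -0.22, against 0.01 for all genes tested, and their median absolute log2 fold change was 0.31, against 0.16. The groups' CPM values did not overlap for 15 of the 31, against 26.8% of all genes. A mean of at least 10 CPM was reached by 25 of the 32 genes and by 9302 of the 14156 tested. Shares of all genes, here and below, are therefore not compared at like expression. Slc2a2, the low-affinity glucose transporter of hepatocytes and mouse β cells, was the untested gene, with 0 to 10 counts per library.

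Together the 32 genes took 1.05 ± 0.0616% of all counts in DMSO libraries and 0.869 ± 0.0276% in enzalutamide libraries (SD, n = 5 each). The range was 0.977% to 1.14% in DMSO and 0.834% to 0.910% in enzalutamide, without overlap. These shares are of raw totals, which amounts to scaling by total counts alone, so they also vary with the other genes of each library.

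**Figure D1:**
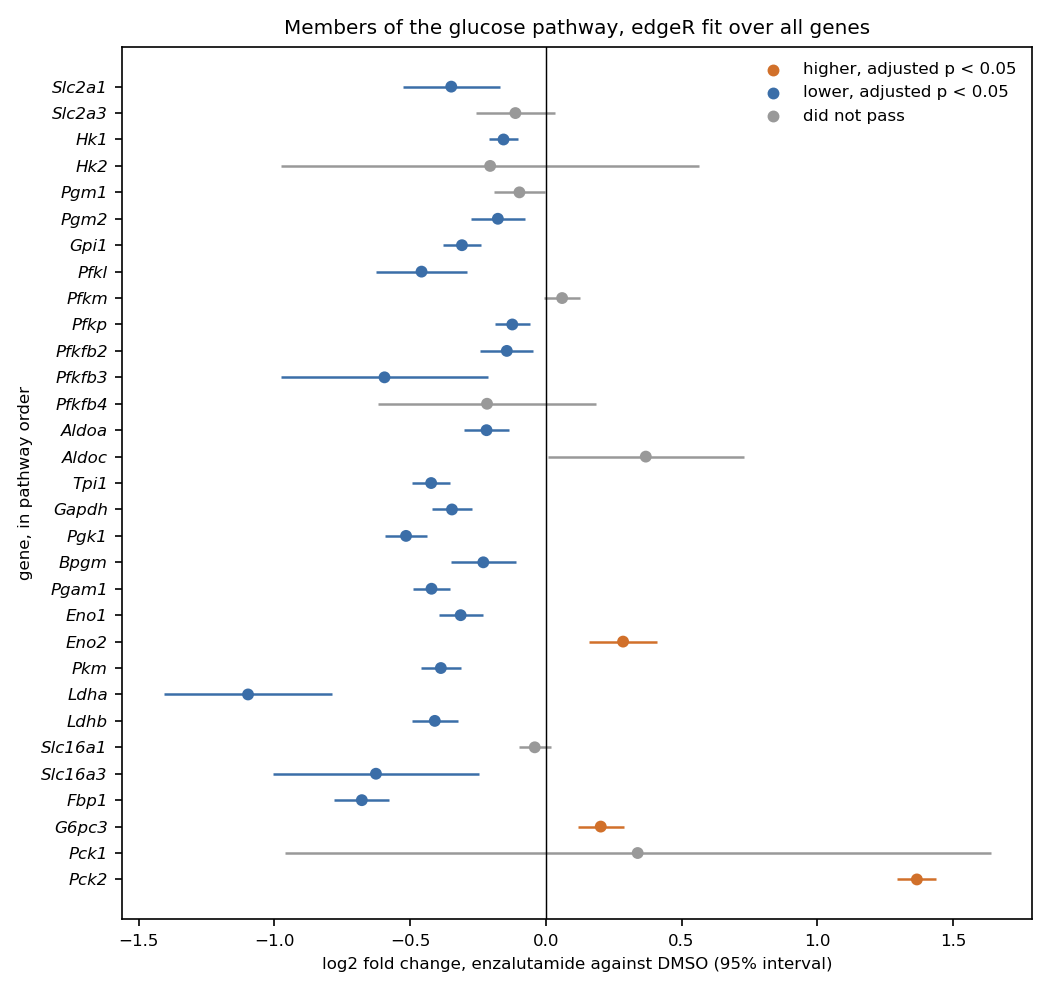
Log2 fold change of enzalutamide against DMSO (points) for the 31 tested genes, listed in pathway order. Bars are 95% intervals by a normal approximation, and colours are orange for higher, blue for lower and grey for genes that did not pass. From Tpi1 to Pkm all points but that of Eno2 (0.28) lie left of 0, Ldha lies farthest left at -1.10 and Pck2 farthest right at 1.37.

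The promoters of 4 genes are shown, chosen among those with clear changes because they hold one of the motifs searched for. Fbp1 and Tpi1 also fell clearly but hold neither motif and are not shown. Ldha, Pgk1 and Pgam1 fell and hold ACGTG, the core of the site bound by hypoxia-inducible factor. Pck2 rose and is the only one of the 31 genes with a window that holds TGATGNAA, the core of the composite site bound by ATF4 with a C/EBP partner. Each sequence covers the 250 bases before a RefSeq start site on build GRCm38.p6, plus strand, outside annotated exons, with the motif in capitals in either orientation (CACGT is the reverse form of ACGTG). The windows are chr7:46845554-46845803 for Ldha, chrX:106186850-106187099 for Pgk1, chr19:41911621-41911870 for Pgam1 and chr14:55540016-55540265 for Pck2. The Ldha window lies within the span of the gene, in an intron of a longer transcript, and the Pck2 window lies in an intron of Gm10876, a gene on the other strand.
Ldha: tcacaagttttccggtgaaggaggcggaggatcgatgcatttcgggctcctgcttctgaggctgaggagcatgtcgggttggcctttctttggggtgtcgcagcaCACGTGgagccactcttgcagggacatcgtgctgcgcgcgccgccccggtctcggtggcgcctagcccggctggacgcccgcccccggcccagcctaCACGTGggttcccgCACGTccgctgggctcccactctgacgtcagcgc
Pgk1: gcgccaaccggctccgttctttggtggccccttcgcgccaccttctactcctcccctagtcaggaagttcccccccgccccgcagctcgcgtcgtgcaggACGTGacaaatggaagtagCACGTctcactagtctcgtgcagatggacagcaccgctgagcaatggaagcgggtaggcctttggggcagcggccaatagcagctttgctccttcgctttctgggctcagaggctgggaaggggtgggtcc
Pgam1: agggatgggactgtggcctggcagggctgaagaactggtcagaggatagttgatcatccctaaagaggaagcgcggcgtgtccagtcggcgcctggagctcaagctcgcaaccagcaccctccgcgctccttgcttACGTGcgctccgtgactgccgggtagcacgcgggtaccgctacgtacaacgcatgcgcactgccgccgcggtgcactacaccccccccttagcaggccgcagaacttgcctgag
Pck2: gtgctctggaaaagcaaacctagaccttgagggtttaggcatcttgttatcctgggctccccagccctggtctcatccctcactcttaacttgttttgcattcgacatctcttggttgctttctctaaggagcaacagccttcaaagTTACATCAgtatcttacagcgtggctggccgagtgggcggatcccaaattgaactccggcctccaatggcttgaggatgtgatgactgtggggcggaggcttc
The Ldha window had 5 matches to ACGTG, with 4 of them in 2 copies of the palindrome CACGTG, each of which matches on both strands and is also an E-box. The Pgk1 window had 2 matches, starting at -150 and -131 from the start site, and the Pgam1 window had 1, at -114. The TGATGNAA match of Pck2 lay in reverse orientation at -103. A second Ldha window, at another RefSeq start, had 0 matches to ACGTG.

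RefSeq's table held 45 windows of 300 bases (250 before to 50 after a start) for 31 of the 32 genes, and Slc2a3 was not matched. ACGTG occurred on either strand in 22 of the 45 windows (48.9%), in 25.2% of 12750 windows of all tested genes and in 19.6% of 32851 windows in all. Mean GC content was 59.4% in the 45 windows and 60.6% in those of tested genes. By gene, 12 of the 20 that fell, 1 of the 3 that rose (G6pc3) and 5 of the 7 with a window that did not pass had a match. The genes that fell without a match were Bpgm, Eno1, Fbp1, Gpi1, Ldhb, Pfkl, Pfkp and Tpi1. TGATGNAA occurred in 1 of the 45 windows (2.22%), in 2.24% of windows of tested genes and in 3.97% of all. A match describes letters in a window and is no evidence of a bound site.

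Of the glucose transporter genes among the 32, Slc2a1 (GLUT1, the widely expressed form) and Slc2a3 (GLUT3, a high-affinity form best known from neurons) were expressed. Slc2a1 fell (log2 fold change -0.35 with SE 0.091, adjusted p = 0.00561), from 74.9 ± 10.5 to 58.8 ± 7.89 CPM (SD, n = 5 each). DMSO libraries 1 and 2, at 86.9 and 85.6 CPM, stood above libraries 3 to 5, between 66.0 and 68.4 CPM, and enzalutamide library 5, at 70.2 CPM, lay within the DMSO range. Slc2a3 did not pass, with 66.0 ± 8.30 and 61.0 ± 5.30 CPM (log2 fold change -0.11, 95% interval -0.26 to 0.03). TPM here means counts divided by the length of all annotated exons of a gene and scaled to a common total. That length can exceed the transcript in use, which limits comparisons of level between genes. By TPM, Slc2a1 made up 70.1 ± 0.531% of summed Slc2a1, Slc2a2 and Slc2a3 in DMSO and 66.4 ± 1.77% in enzalutamide.

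Hexokinase, which phosphorylates glucose on entry, was almost entirely Hk1, the constitutive isoform, with 99.7% of the summed hexokinase TPM in DMSO. Hk1 (chromosome 10, 62268855 to 62379908, minus strand, GRCm38/mm10) was at 312, 322, 315, 330 and 322 CPM in DMSO libraries 1 to 5 and at 290, 293, 282, 283 and 289 CPM in enzalutamide libraries 1 to 5. Every enzalutamide library was below every DMSO library, by a small margin (log2 fold change -0.16 with SE 0.0272, adjusted p = 0.0002). Hk2, the inducible isoform, was at 0.582 ± 0.233 and 0.504 ± 0.223 CPM and did not pass (log2 fold change -0.21, 95% interval -0.97 to 0.56). Without DMSO library 1 its log2 fold change was 0.0062.

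The phosphoglucomutases link glycogen to glycolysis. In the count table the symbol Pgm1 belongs to ENSMUSG00000029171 on chromosome 5, which RefSeq calls Pgm2, and Pgm2 belongs to ENSMUSG00000025791 on chromosome 4, which RefSeq calls Pgm1, so the table's names are used here. Pgm2 fell from 158 ± 12.2 to 140 ± 8.20 CPM (log2 fold change -0.18 with SE 0.0507, adjusted p = 0.0103), with overlap. Pgm1 was at 50.2 ± 2.43 and 47.0 ± 2.47 CPM and did not pass (log2 fold change -0.10, adjusted p = 0.12), but it passed without enzalutamide library 4 (-0.13, adjusted p = 0.0472).

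Gpi1 encodes glucose phosphate isomerase, which makes the substrate of phosphofructokinase. It was at 679, 674, 616, 645 and 600 CPM in the DMSO libraries and at 525, 538, 497, 505 and 529 CPM in the enzalutamide libraries. The groups did not overlap (log2 fold change -0.31 with SE 0.0364, adjusted p = 3.43e-06).

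Phosphofructokinase, the committing step, was carried by all of its isoforms, and they moved unequally. Pfkl, the liver isoform, was at 138, 123, 110, 106 and 96.0 CPM in DMSO libraries 1 to 5 and at 82.2, 87.8, 76.1, 73.4 and 97.7 CPM with enzalutamide. It fell (log2 fold change -0.46 with SE 0.0861, adjusted p = 0.000409), and enzalutamide library 5 was just above DMSO library 5. Pfkm, the muscle isoform, was at 123, 120, 118, 126 and 122 CPM in DMSO and at 129, 132, 118, 127 and 128 CPM in enzalutamide. These values overlapped, and Pfkm did not pass (log2 fold change 0.06, 95% interval -0.01 to 0.13, adjusted p = 0.19). With libraries scaled by total counts alone, Pfkm passed at a log2 fold change of 0.09 (adjusted p = 0.0345). Pfkp, the platelet isoform, was at 432, 425, 393, 413 and 400 CPM in DMSO and at 371, 386, 373, 366 and 398 CPM in enzalutamide. Its decrease was small, and enzalutamide library 5 lay within the DMSO range (log2 fold change -0.12 with SE 0.0333, adjusted p = 0.00694). Summed over isoforms, phosphofructokinase was at 265 ± 12.9 TPM in DMSO and 250 ± 12.3 TPM in enzalutamide, with overlap.

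The bifunctional Pfkfb enzymes set the level of the sugar phosphate that activates phosphofructokinase. Pfkfb2 carried 90.1% of their summed TPM in DMSO and fell from 112 ± 2.95 to 102 ± 8.95 CPM (log2 fold change -0.14 with SE 0.0495, adjusted p = 0.0295). Pfkfb3, the isoform with the highest kinase activity, was at 13.0, 10.4, 5.66, 7.53 and 7.37 CPM in DMSO libraries 1 to 5 and between 3.69 and 7.06 CPM in enzalutamide (log2 fold change -0.59 with SE 0.195, adjusted p = 0.0228). Both calls depended on which libraries were used. Pfkfb3 did not pass without DMSO library 1 (-0.42, adjusted p = 0.0856), DMSO library 2 (-0.53, adjusted p = 0.0617) or enzalutamide library 4 (-0.47, adjusted p = 0.0611). Pfkfb2 missed the threshold when DMSO library 2, 3 or 4, or library 1, 2 or 3 of enzalutamide, was left out, with log2 fold changes between -0.15 and -0.10 and adjusted p between 0.0517 and 0.0824. Pfkfb4 was at 2.61 ± 0.601 and 2.25 ± 0.647 CPM and did not pass (log2 fold change -0.22, 95% interval -0.62 to 0.19).

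Aldolase was almost wholly Aldoa, the muscle and general isoform, with 99.7% of the summed aldolase TPM in DMSO and 99.5% in enzalutamide. Aldoa was between 921 and 1091 CPM in DMSO and between 801 and 913 CPM in enzalutamide, without overlap (log2 fold change -0.22 with SE 0.0414, adjusted p = 0.000444). Aldoc, the brain isoform, was at 3.40 ± 0.877 and 4.40 ± 0.947 CPM and did not pass (log2 fold change 0.37 with SE 0.184, adjusted p = 0.132).

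**Figure D2:**
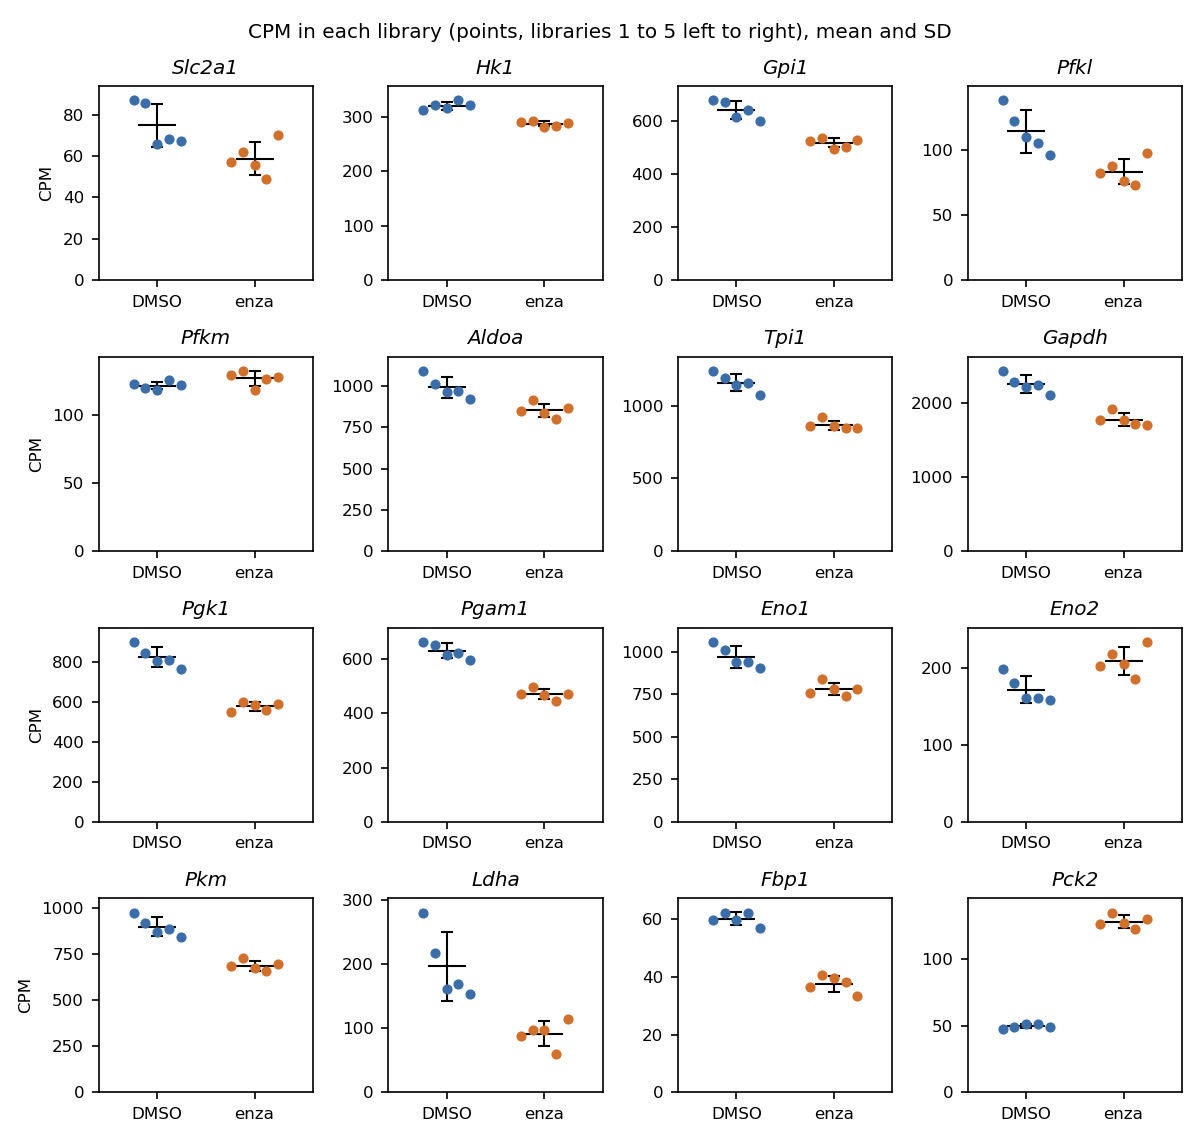
CPM of 16 genes in each library (points, libraries 1 to 5 from left to right within DMSO in blue and enzalutamide, written enza, in orange), with the mean and SD of 5 libraries in black and every axis starting at 0. Pck2 is the clearest rise, from 48.1 to 51.8 CPM up to 123 to 135 CPM, whereas the points of Pfkm and Eno2 overlap between groups and Ldha varies most within a group.

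The enzymes after aldolase fell almost throughout. From Tpi1 to Pkm, 6 of 7 genes fell, all without overlap between groups, and Eno2 rose. Over all genes tested, 18.8% fell and 26.8% did not overlap. Tpi1 encodes triosephosphate isomerase, which interconverts the trioses made by aldolase. It was at 1237, 1189, 1140, 1152 and 1074 CPM in DMSO libraries 1 to 5 and at 856, 920, 857, 843 and 846 CPM with enzalutamide. The gap between groups was wide against the spread within them (log2 fold change -0.42 with SE 0.0355, adjusted p = 6.83e-08).

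Gapdh is the dehydrogenase that makes NADH in glycolysis and a common reference gene for normalising expression. It was the most abundant of the 32 genes by TPM, at 1717 ± 96.6 TPM in DMSO. Its CPM values were 2439, 2294, 2220, 2248 and 2113 in DMSO and 1771, 1921, 1781, 1718 and 1712 in enzalutamide. All 5 enzalutamide values were lower than all 5 DMSO values (log2 fold change -0.35 with SE 0.0369, adjusted p = 1.11e-06).

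Pgk1, phosphoglycerate kinase, catalyses an ATP-forming step and its promoter is shown above. It was at 900, 843, 804, 812 and 762 CPM in DMSO and at 552, 600, 584, 560 and 589 CPM in enzalutamide. The lowest DMSO library was well above the highest enzalutamide library, and Pgk1 was 30.0% lower (log2 fold change -0.51 with SE 0.0388, adjusted p = 1.83e-08). Bpgm, which makes the bisphosphoglycerate that modulates haemoglobin in red cells, fell from 24.8 ± 2.21 to 21.2 ± 0.832 CPM (log2 fold change -0.23 with SE 0.0614, adjusted p = 0.00644).

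Pgam1, phosphoglycerate mutase, was at 664, 654, 615, 623 and 599 CPM in DMSO and at 472, 497, 468, 446 and 473 CPM in enzalutamide. It was lower in every enzalutamide library (log2 fold change -0.42 with SE 0.0346, adjusted p = 5.32e-08). Pkm encodes the pyruvate kinases M1 and M2, splice forms that a count per gene does not separate. Its values were 975, 919, 872, 884 and 842 CPM in DMSO and 684, 727, 674, 657 and 695 CPM in enzalutamide. Pkm also fell without overlap (log2 fold change -0.39 with SE 0.0374, adjusted p = 3.6e-07).

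The enolases moved in opposite directions. Eno1, the general isoform (chromosome 4, 150236721 to 150248879, plus strand), was at 1060, 1013, 939, 941 and 905 CPM in DMSO libraries 1 to 5 and at 761, 841, 780, 744 and 783 CPM in enzalutamide. It fell without overlap (log2 fold change -0.31 with SE 0.0416, adjusted p = 1.29e-05). Eno2, the isoform of neurons and neuroendocrine cells (chromosome 6, 124760053 to 124769673, minus strand), was at 199, 180, 161, 162 and 159 CPM in DMSO and at 204, 219, 205, 186 and 234 CPM in enzalutamide. Eno2 rose (log2 fold change 0.28 with SE 0.0639, adjusted p = 0.00185), although enzalutamide library 4 lay below DMSO library 1. Within each library the ratio of Eno2 to Eno1 counts was between 17.1% and 18.8% in DMSO and between 25.0% and 29.9% in enzalutamide. This ratio did not overlap and was 0.60 higher on the log2 scale (SE 0.0497, exact two-sided permutation test, p = 0.00794, n = 5 each, the smallest that 5 against 5 libraries allow, and 0.0258 adjusted over 13 pairs). By TPM, Eno2 was 16.8 ± 0.534% of enolase in DMSO and 23.4 ± 1.22% in enzalutamide. The summed enolase level was 681 ± 51.5 TPM in DMSO and 603 ± 26.6 TPM in enzalutamide, with overlap.

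Lactate dehydrogenase fell through both isoforms. Ldha, whose M subunits favour lactate formation, was at 280, 217, 162, 169 and 152 CPM in DMSO libraries 1 to 5 and at 87.8, 97.6, 97.6, 60.5 and 115 CPM in enzalutamide. Its decrease was the largest of the 23 called genes apart from the rise of Pck2, 2.14-fold (log2 fold change -1.10 with SE 0.158, adjusted p = 3.13e-05), and the groups did not overlap. Without DMSO library 1 the log2 fold change was -0.94 (adjusted p = 5.93e-05), and over the 10 fits that left out a library it was between -1.19 and -0.94. Ldhb, whose H subunits favour pyruvate formation, was at 100, 107, 114, 110 and 110 CPM in DMSO and at 81.1, 84.8, 83.6, 83.8 and 74.3 CPM in enzalutamide. It fell without overlap and with little spread (log2 fold change -0.41 with SE 0.0432, adjusted p = 9.94e-07). Summed lactate dehydrogenase was 37.1% lower, at 402 ± 42.3 TPM in DMSO and 253 ± 14.9 TPM in enzalutamide.

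The lactate carriers differed greatly in level. Slc16a1 (MCT1), the general monocarboxylate carrier, held 98.2% of the summed TPM of the pair in DMSO, was at 138 ± 3.50 and 134 ± 2.74 CPM and did not pass (log2 fold change -0.04, 95% interval -0.10 to 0.02). Slc16a3 (MCT4), the exporter of strongly glycolytic cells, was low, between 2.21 and 4.31 CPM in DMSO and between 1.61 and 2.28 CPM in enzalutamide. It fell (log2 fold change -0.63 with SE 0.193, adjusted p = 0.0163), but not without DMSO library 2 (-0.47, adjusted p = 0.0632).

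**Figure D3:**
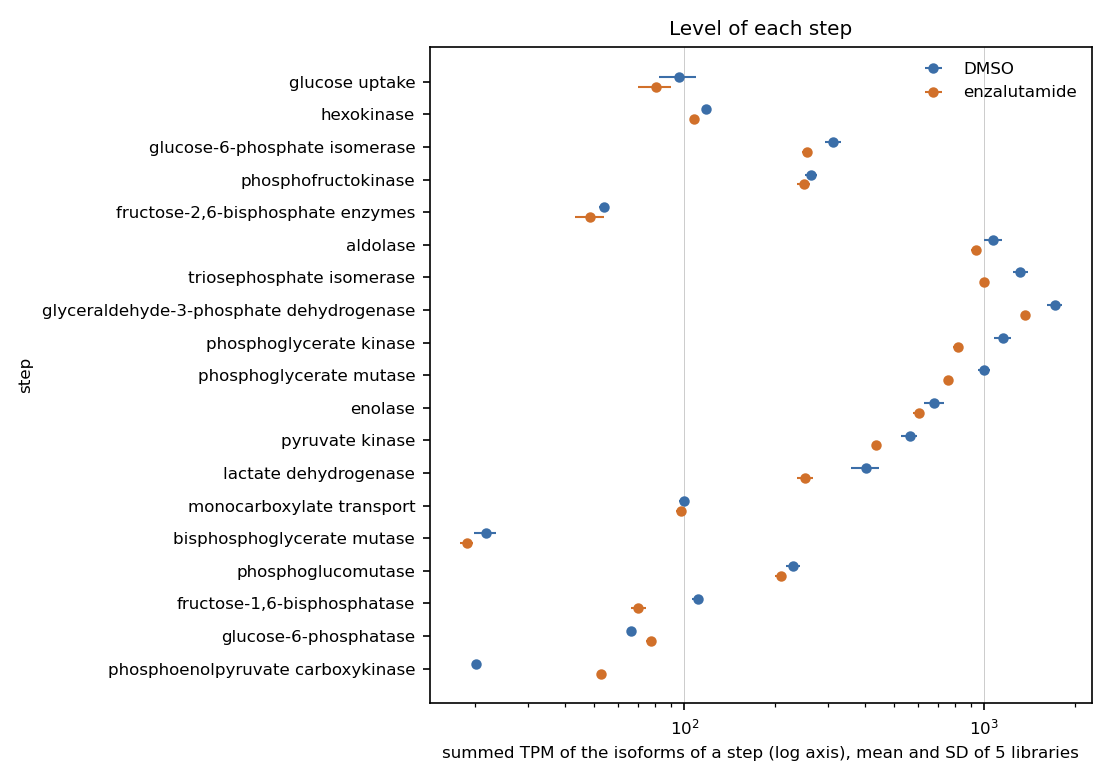
Summed TPM of the isoforms of each step on a log axis, as the mean (points) and SD (bars) of 5 libraries in DMSO (blue) and enzalutamide (orange), with single-gene steps plotted as that gene. Glyceraldehyde phosphate dehydrogenase is highest in both groups, lactate dehydrogenase drops from 402 to 253 TPM, and phosphoenolpyruvate carboxykinase is the step with the largest rise, from 20.2 to 52.5 TPM.

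The genes particular to gluconeogenesis did not move as a group. Pck2 (chromosome 14, 55540266 to 55551242, plus strand), which makes phosphoenolpyruvate inside mitochondria, was at 48.1, 49.0, 51.8, 51.2 and 49.2 CPM in DMSO libraries 1 to 5 and at 127, 135, 128, 123 and 130 CPM in enzalutamide. It rose 2.58-fold (log2 fold change 1.37 with SE 0.0367, adjusted p = 1.93e-14), with a wide gap between the groups. Pck1, the cytosolic form regulated by hormones in liver, had 15, 14, 10, 6 and 9 counts in DMSO and 22, 6, 0, 11 and 28 counts in enzalutamide and did not pass (adjusted p = 0.735).

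Fbp1, the fructose bisphosphatase that opposes phosphofructokinase, was at 59.8, 62.3, 59.7, 62.2 and 57.0 CPM in DMSO and at 36.4, 40.6, 39.6, 38.1 and 33.3 CPM in enzalutamide. All enzalutamide libraries were lower (log2 fold change -0.68 with SE 0.0517, adjusted p = 2.16e-08), a decrease of 37.5%. G6pc3, the glucose phosphatase catalytic subunit expressed outside liver, was between 45.6 and 48.9 CPM in DMSO and between 51.6 and 57.7 CPM in enzalutamide. It rose without overlap (log2 fold change 0.20 with SE 0.0433, adjusted p = 0.00126).

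By TPM, the middle and lower steps of glycolysis had the highest levels. This order rests on annotated exon lengths as well as on counts. In DMSO, Gapdh was followed by Tpi1 (1320 ± 75.0 TPM), Pgk1 (1152 ± 76.4 TPM), Aldoa (1069 TPM) and Pgam1 (998 ± 49.5 TPM). The neighbours Pgk1 and Aldoa, and Aldoa and Pgam1, differed by less than the sum of their SDs. By CPM, DMSO library 1 was highest and library 5 lowest for each of these genes. The SDs thus include variation that the genes share and do not measure how certain their order is. Eno1 (566 TPM) and Pkm (563 TPM) were also close together, and Gpi1 (312 TPM) stood apart below them. The upper steps were lower, with hexokinase at 118 ± 3.05 TPM and glucose uptake at 95.6 ± 13.5 TPM. By step, the mean level fell by 37.1% for lactate dehydrogenase, 36.7% for fructose bisphosphatase, 29.1% for phosphoglycerate kinase and 24.4% for triosephosphate isomerase. It was 16.2% lower for uptake, 9.05% lower for hexokinase and 5.45% lower for phosphofructokinase, where uptake and phosphofructokinase overlapped between groups. These step levels are descriptions and carry no test.

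Isoform balance was compared as the log2 ratio of paralogs within each library, which cancels gene length and scaling, for the 13 of 16 pairs with enough counts. The ratio differed between groups for 5 of the 13 (exact two-sided permutation tests, n = 5 each, p-values adjusted over the 13). Besides the enolases, Pfkm rose against Pfkl by 0.51 (SE 0.113), Slc2a3 rose against Slc2a1 by 0.24 (SE 0.0535) and Pfkp fell against Pfkm by 0.18 (SE 0.0376), each with adjusted p = 0.0258 and no overlap. Pfkp rose against Pfkl by 0.33 (SE 0.0891, adjusted p = 0.0413), with overlap. The phosphofructokinase ratios share genes and are not independent of each other. The share of Pfkl in the phosphofructokinase TPM was 20.3 ± 2.08% in DMSO and 15.8 ± 1.22% in enzalutamide. That of Pfkm was 43.2 ± 1.82% and 48.3 ± 1.37%. The size of these shares rests on annotated exon lengths of 6675 bases for Pfkl, 3340 for Pfkm and 13401 for Pfkp. In CPM, Pfkp was the highest of these isoforms.

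Ratios of Ldhb to Ldha (0.68, SE 0.261), Aldoc to Aldoa (0.60, SE 0.194) and Slc16a3 to Slc16a1 (-0.55, SE 0.193) were as large but more variable, and each missed the threshold at an adjusted p of 0.0516 in the exact permutation test. With 1 count added to each gene, Pck2 rose against Pck1 by 1.70, without passing (exact permutation test, adjusted p = 0.111). The other 5 pairs, of Hk, Pgm and Pfkfb genes, had adjusted p of at least 0.275. The calls depended on which library was left out. Without DMSO library 1 none of the 13 passed (0 pairs), and the enolase ratio, then 0.62 higher, had an adjusted p of 0.0516 by the exact permutation test. Its unadjusted p of 0.00794 was the smallest that 5 against 4 libraries allow. Whether it passed therefore turned on the p-values of the other pairs, not on a smaller difference. Without DMSO library 4 or without enzalutamide library 1, 2, 3 or 4, 3 pairs passed. Without DMSO library 2 there were 5, without enzalutamide library 5 there were 6, and without DMSO library 3 or 5 there were 7. Among the ratios that missed the threshold with all libraries, Ldhb to Ldha passed without DMSO library 3 or 5 or enzalutamide library 5 (adjusted p = 0.0442, 0.0442 and 0.0206, exact permutation tests). Slc16a3 to Slc16a1 passed without DMSO library 3 or 5, and Aldoc to Aldoa without DMSO library 2.

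**Figure D4:**
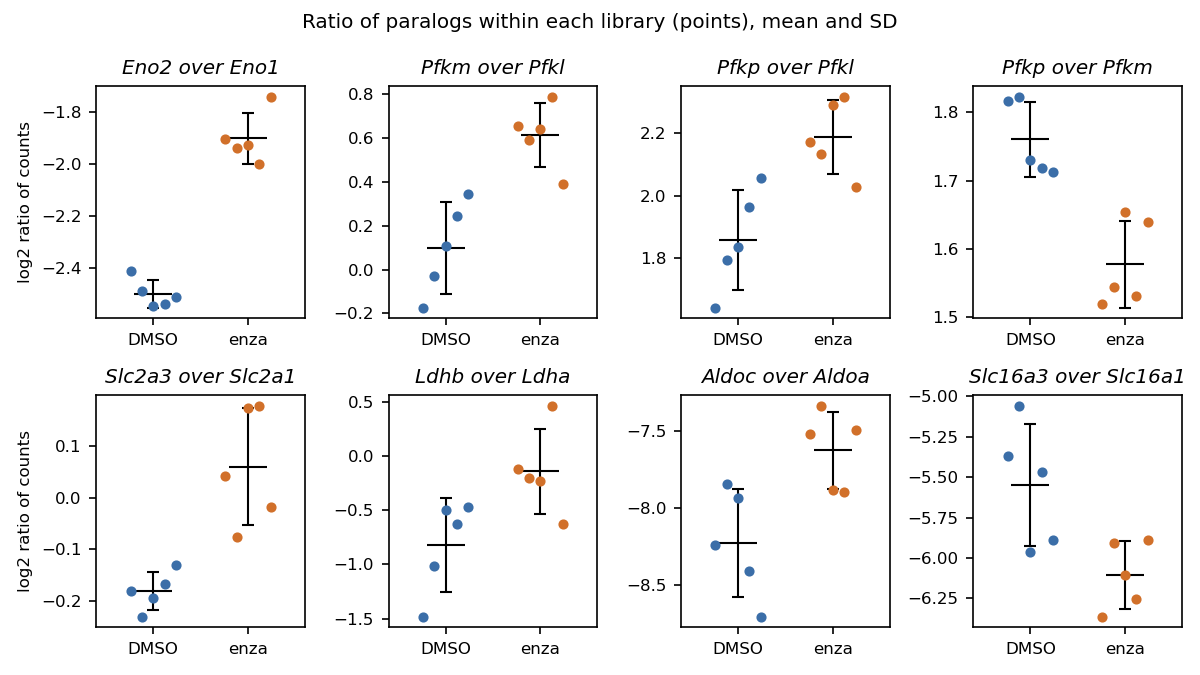
Log2 ratio of the counts of 2 paralogs within each library (points, libraries 1 to 5 from left to right), with the mean and SD of 5 libraries in black, for the 5 pairs that passed and the 3 that came closest, on axes that do not start at 0. The Eno2 to Eno1 ratio separates the groups widely, whereas the Ldhb to Ldha ratio spreads over more than 1 log2 unit in enzalutamide and overlaps.

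Libraries of one group also differed among themselves, and the same few libraries were often the highest or the lowest. DMSO library 1 was the highest of its group for 19 of the 31 tested genes (61.3%, against 21.3% of all genes tested), and DMSO library 5 was the lowest for 17 (54.8%, against 20.2%). In enzalutamide, library 2 was highest for 16 and library 5 for 13 of the 31 (51.6% and 41.9%, against 26.7% and 25.2% of all genes), and library 4 was lowest for 15 (48.4%, against 16.0%). Among hypoxia-induced genes outside glycolysis, DMSO library 1 was highest for 15 of 18 and enzalutamide library 4 lowest for 12 of 18. The coefficient of variation over DMSO libraries was 27.1% for Ldha, 32.8% for Pfkfb3 and 28.3% for Slc16a3, and 3.13% for Pck2. Among genes of at least 10 CPM its median was 5.24% for 25 of the 32 genes and 4.51% for 9302 genes in all. Pfkfb3 and Slc16a3 lie below 10 CPM, where counting noise is larger, and are outside these medians. The part of this library pattern in the group differences was not tested.

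**Figure D5:**
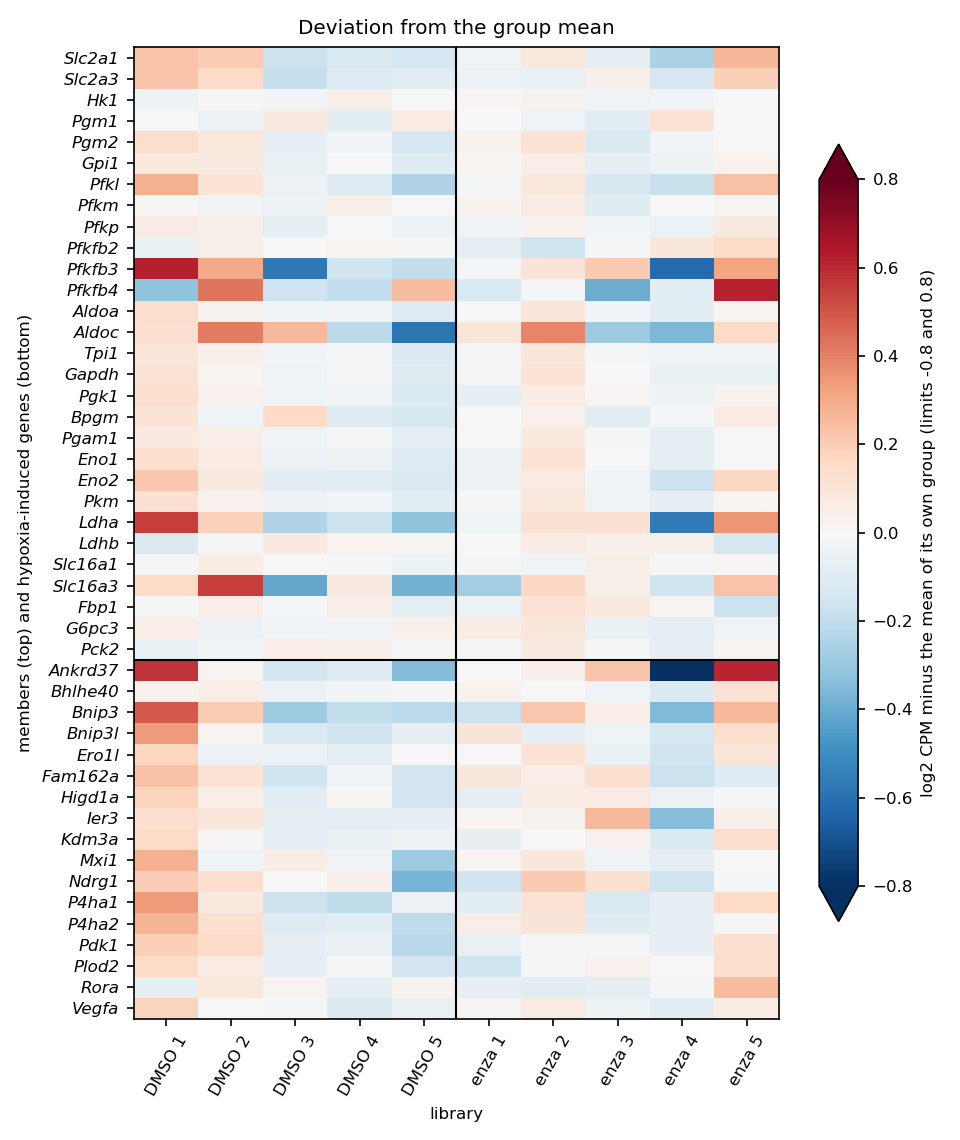
Log2 CPM of each library minus the mean of its own group, from -0.8 (blue) to 0.8 (red), for the 29 genes with a mean of at least 1 CPM in pathway order (above the line) and 17 of the 18 tested hypoxia-induced genes (below the line). Red prevails in DMSO library 1 and blue in enzalutamide library 4 in both blocks, most strongly for Pfkfb3, Ldha, Ankrd37 and Bnip3.

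Hypoxia-induced genes outside glycolysis moved in both directions. Of 18 tested, 6 rose and 6 fell (33.3% each, against 19.0% and 18.8% of all genes tested). The median log2 fold change was -0.06, against 0.01 for all genes tested. The split depended on the libraries used, with 5 to 6 higher and 4 to 9 lower when a library was left out. The rises with the lowest adjusted p were Vegfa, the angiogenic growth factor (log2 fold change 0.43 with SE 0.0473, adjusted p = 1.71e-06), Bhlhe40, a transcriptional repressor (0.30), and Ero1l, an oxidase of the endoplasmic reticulum (0.24). Ndrg1 (0.34) and Mxi1 (0.29), named after their values were seen, rose more than Ero1l at a higher adjusted p. The decreases with the lowest adjusted p were Higd1a, a mitochondrial protein (-0.50, SE 0.0528, adjusted p = 9.31e-07), Ier3, an early response gene (-0.74), and Plod2, a collagen lysyl hydroxylase (-0.44). Bnip3, a mitochondrial receptor of autophagy also named after its value was seen, fell by 0.64 on the log2 scale (adjusted p = 0.00112).

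Other genes of the pathway, from a list of 44 of which 28 could be tested, gave 5 rises (17.9%, against 19.0% of all genes tested), 9 decreases (32.1%, against 18.8%) and a median log2 fold change of -0.09. The share that rose was near that of all genes. The decreases with the lowest adjusted p were Slc2a13, a proton and myo-inositol symporter (-0.46, from 108 ± 3.87 to 78.6 ± 5.64 CPM), G6pc2, the islet glucose phosphatase (-0.58, from 23.8 ± 0.774 to 15.9 ± 2.12 CPM), and Fbp2, the muscle fructose bisphosphatase (-0.64). The rises with the lowest adjusted p were Slc2a9, a urate transporter (1.12, from 1.34 ± 0.483 to 2.91 ± 0.353 CPM), Slc2a6 (0.35) and Pgm2l1 (0.33). Hkdc1, a hexokinase-like gene of low level named after its value was seen, rose by more than the last 2 of these (0.66, adjusted p = 0.00778). With total-count scaling 5 of the list fell in place of 9.

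Several glycolytic genes have processed pseudogenes whose reads could be split from or added to theirs. In the annotation 210 genes had a transcript near-identical to one of the 32 genes, 177 of them copies of Gapdh, but the count table listed 5 of these. Gm5506, a copy of Eno1 also called Eno1b, held 8.11% of their joint counts in DMSO and 8.29% in enzalutamide and moved with Eno1 (log2 fold change -0.28 with SE 0.0631, adjusted p = 0.00188). Pgk1-rs7 held 1.44% and 1.51% of its joint counts with Pgk1 and also fell (-0.44, adjusted p = 0.000577). Adding the copies to their parent genes left the count of genes called higher and lower at 3 and 20.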

How the data were processed

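Polyadenylated RNA of αTC1 cells in DMSO or enzalutamide was sequenced, and libraries were grouped by title and treatment label. The authors deposited whole-number counts per Ensembl gene, the basis of the tests, and a table of library-scaled signal, used for the limma-trend alternatives. In the latter the authors' values for 20039 genes matched by a unique symbol equalled the count divided by DESeq2's size factor, within 0.01. HISAT2, StringTie, DESeq2 and the mm10 build are named in the submitters' processing notes, without versions or roles. How strand and multiply mapped reads were treated is not given in the sources used here. No per-library column was left unused (0).

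Counts were filtered with filterByExpr, scaled by TMM and compared by edgeR 4.0.16 quasi-likelihood tests (R 4.3.3) without covariates, with Benjamini-Hochberg adjustment over 14156 genes. SEs were taken as the size of the log2 fold change over the root of the F statistic. The biological coefficient of variation was 8.39%. TPM used the merged length of all exons annotated to a gene in GENCODE M21 (31975 identifiers, 96.3%, were matched). Paralog ratios were compared by exact permutation in Python 3.11.15 with NumPy 2.4.6, leaving out Pck (0 counts in 1 library) and Slc2a2. Copies were found with minimap2 2.31 (at least 90% identity over 80%). Alternatives were other scalings and filters, DESeq2 1.42.0, limma 3.58.1, a replicate block, GC and length trends removed, symbols summed, copies added (chosen after seeing the data) and each library left out. The pipeline was tested on simulated data.

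The members and gene lists were chosen with earlier results of these data known. Values in every library were given for the 12 members of lowest adjusted p and for members of passing pairs with opposite signs, and up to 3 passing genes per list and direction were named. Pfkfb3, Slc2a1 and others given by library, and the genes named for their spread between libraries, were chosen after their values were seen.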

Additional observations from a re-analysis of the deposited data

Results flagged for a closer look

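Tpi1 in enzalutamide library 2, at 920 CPM, stood apart from the other 4 libraries of its group, of which the nearest was at 857 CPM. It was still below the lowest DMSO library. This was the only such value among 64 combinations of gene and group examined for a library far from the rest, and chance alone gives about 1 in 20.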

How the results depend on the processing

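Over 23 alternatives, 24 of the 31 tested members kept their direction and side of the threshold, and 20 of the 23 called members kept their call in all of them. The exceptions among called members were Pfkfb2, Pfkfb3 and Slc16a3. Pfkfb2 also missed with total-count scaling (adjusted p = 0.106, edgeR) and with no filter on low counts (0.0706), as did Pfkfb3 with no filter (0.0779). Pgm1 passed without enzalutamide library 4 (-0.13, adjusted p = 0.0472). Total-count scaling shifted the median log2 fold change of all genes by 0.03, split all calls into 3285 higher and 2131 lower (60.7% higher, against 50.3%), and left 5 other pathway genes and 5 regulators lower in place of 9 and 8. With GC and length trends removed, 2435 genes were higher and 3230 lower (43.0% higher). Pck1, with its few counts, changed direction with limma-voom (-0.54), limma-trend at a pseudocount of 1 (-0.33) and the replicate block with GC and length trends removed (-0.0212). Leaving out each library gave ranges that crossed 0 for Pck1 (-0.11 to 0.66), Hk2 (-0.46 to 0.0062), the Hk2 to Hk1 ratio (-0.29 to 0.17) and the Pfkfb4 to Pfkfb2 ratio (-0.20 to 0.0161). None of these passed, and the cause was not tested. The count of paralog pairs that passed was 0 to 7 when a library was left out. Deviations of same-numbered libraries from their group means had correlations of -0.01 to 0.05, against -0.06 to 0.05 for differently numbered ones. No clear pairing by number was seen, and a weak one cannot be told from these values. With the replicate block, 3 members were higher and 20 lower, as without it, 2659 genes were higher and 2637 lower in all, and 0 paralog pairs passed, since a sign-flip test of 5 pairs cannot give a p below 0.0625. Depth limits Slc2a2, Pck1 and Hk2, which lie near the limit of detection or below 1 CPM.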

Other observations

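Among 23 transcription factors and modulators known to regulate glucose metabolism, 4 rose (17.4%, against 19.0% of all genes tested) and 8 fell (34.8%, against 18.8%), with a median log2 fold change of -0.05 against 0.01 for all genes tested (edgeR's quasi-likelihood test, adjusted p under 0.05). The share that rose was near that of all genes. The genes named are those with the lowest adjusted p in each direction. Atf4, the stress-induced transcription factor, rose from 312 ± 12.2 to 486 ± 29.5 CPM (log2 fold change 0.64 with SE 0.0404, adjusted p = 1.93e-09). Ppargc1a, a coactivator of mitochondrial and gluconeogenic genes, rose from 213 ± 5.95 to 278 ± 15.6 CPM (0.38, adjusted p = 4.09e-07). Myc, a transcription factor that promotes growth and glycolysis, rose from 0.637 ± 0.294 to 4.18 ± 1.05 CPM (2.71, SE 0.266, adjusted p = 4.21e-07) and remained a gene of low level. Txnip, an arrestin that restrains glucose uptake and is induced by glucose, fell from 92.2 ± 3.18 to 55.7 ± 1.89 CPM (-0.73, SE 0.0374, adjusted p = 1.29e-10). Its relative Arrdc4 fell from 17.8 ± 0.966 to 11.8 ± 1.19 CPM (-0.58), and Epas1, the HIF subunit of endothelial and other cells, fell from 5.10 ± 0.452 to 3.19 ± 0.677 CPM (-0.68). Hif1a, chosen after its value was seen, fell slightly with overlap between groups (-0.12, SE 0.037, adjusted p = 0.0166).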
